A study of Mus musculus with 12 samples.

Results

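Gpr171, P2ry14, P2ry13 and P2ry12 are 4 receptor genes that lie side by side on mouse chromosome 3. They were described here in MC38 tumors treated with PB-020, an inhibitor of the IGF-1 receptor, with an antibody against the checkpoint receptor PD-1, or with both. Gpr171 was chosen because it was among the genes most clearly raised in these data. The groups behind that choice were taken to be the combination and the control. Its difference between those groups is therefore a description and carries no test. The other 3 members were added because they are its relatives and neighbors. All 4 members, of the 18211 genes in the table, were among the 13563 with enough counts to be tested.

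All 4 members encode receptors that act through inhibitory (Gi) G proteins. GPR171 is a receptor for BigLEN, a peptide cut from the precursor proSAAS, and it is known to restrain signaling of the T cell receptor. P2Y12 and P2Y13 are receptors for ADP, and P2Y12 is best known from platelets, where it is a drug target, and from microglia. P2Y14 is a receptor for UDP-glucose and related UDP-sugars, which damaged or stressed cells release, and it is known from myeloid cells among others.

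MC38 is a mouse colorectal adenocarcinoma line, and the cells were grown under the skin of female C57BL/6 mice that were 5 weeks old when purchased. Each of 4 groups had 3 tumors. CK mice received the vehicle, PB-020 mice 50 mg/kg of the compound by mouth each day, anti-PD-1 mice 0.2 mg of antibody into the peritoneum on days 9, 12, 15 and 18 after the cells were injected, and PB-020+anti-PD-1 mice both agents. The mice were divided on day 7, after tumors had formed, and no control antibody is named in the sources used here. The host is immunocompetent and tumor and host share a genome, so a value is that of the whole tumor tissue, and fewer cells of a type cannot be told apart from less RNA per cell. The labels number the tumors but do not say that each came from its own mouse, so p values measure the spread between these tumors.

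Depth was even, with 16545394 to 17217035 expected counts per tumor. Anti-PD-1 tumor 1 stood apart, with 898 TPM summed over 6 skeletal muscle markers against 16.4 to 95.7 in the other 11 tumors. It also had the highest summed TPM of T cell markers (181) and of macrophage markers (2610). CK tumor 3 had 739 TPM over the neutrophil markers, against 10.6 to 54.7 elsewhere. Epithelial markers were low in every tumor (3.92 to 7.5 TPM in sum), and Epcam, Krt8, Krt18 and Krt19 did not pass the filter on low counts.

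On the GRCm38.p6 assembly the 4 members occupied 166.5 kb of chromosome 3 and were all read from the minus strand. Gpr171 (gene 229323) lies at 59096448 to 59101821, P2ry14 (gene 140795) at 59114623 to 59153492, P2ry13 (gene 74191) at 59207892 to 59210882 and P2ry12 (gene 70839) at 59216271 to 59262985. The lower coordinates of P2ry14, P2ry13 and P2ry12, the 3′ ends of these minus-strand genes, were 18.2, 111.4 and 119.8 kb from that of Gpr171. All 4 genes sit within Med12l, a gene of the opposite strand that encodes a Mediator subunit and spans 313.0 kb. Exons of Gpr171, P2ry13 and P2ry14 shared 0 bases with those of Med12l, and exons of P2ry12 shared 9. Med12l itself had group means of 0.06 to 0.113 FPKM. Whether reads were counted by strand is not given in the sources used here, so reads of Med12l from a shared base cannot be told apart.

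The sequences before 3 of the starts are shown to place the receptors whose levels are described next, and no link between these bases and the levels was tested. Each line gives the 250 bases before a RefSeq start, 5′ to 3′ on the minus strand of GRCm38.p6, with capitals for a match of AGGAAGT (ETS family) or TGANTCA (AP-1). P2ry12 is at chr3:59262986-59263235, P2ry13 at chr3:59210883-59211132, and P2ry14, at the most upstream of its 4 starts, at chr3:59153493-59153742.
P2ry12: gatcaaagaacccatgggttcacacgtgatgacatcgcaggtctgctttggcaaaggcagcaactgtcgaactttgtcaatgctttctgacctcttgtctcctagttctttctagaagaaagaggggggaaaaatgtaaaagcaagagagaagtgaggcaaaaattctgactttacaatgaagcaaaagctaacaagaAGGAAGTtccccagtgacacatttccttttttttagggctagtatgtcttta
P2ry13: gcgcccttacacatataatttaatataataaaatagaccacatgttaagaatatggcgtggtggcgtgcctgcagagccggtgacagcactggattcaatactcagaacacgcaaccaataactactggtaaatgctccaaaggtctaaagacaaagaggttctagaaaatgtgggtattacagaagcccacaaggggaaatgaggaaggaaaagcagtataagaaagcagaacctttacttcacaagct
P2ry14: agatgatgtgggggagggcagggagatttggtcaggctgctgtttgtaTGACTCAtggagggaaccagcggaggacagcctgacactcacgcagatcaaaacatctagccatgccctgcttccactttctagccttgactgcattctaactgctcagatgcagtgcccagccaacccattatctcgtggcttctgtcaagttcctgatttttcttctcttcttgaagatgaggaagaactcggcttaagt

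The P2ry12 window held 1 AGGAAGT, 52 bases before the start, a motif found on either strand in 7.69% of the 32851 RefSeq windows of this length. The P2ry14 window held 1 TGANTCA, 202 bases before the start, which 6.75% of the windows held. The RUNX motif TGTGGTT, which 4.4% of all windows held on either strand, was in none of the 3 shown. The same was true of the STAT motif TTCNNNGAA, held by 7.02% of windows, and of the TATA box, searched as TATAAA and held by 12.4%. The P2ry13 window matched none of the 5 motifs. GC content was 41.6% for P2ry12 and P2ry13 and 50% for P2ry14, against a median of 52.4%. The P2ry12 window lies wholly within an annotated exon of Med12l, whereas the other 2 share no base with one. The counts do not separate the 4 starts of P2ry14. Of the windows before its other 3 starts, not shown, 1 held TGANTCA, 144 bases before the start, and 1 held TATAAA, 118 bases before it.

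Gpr171 was the lowest of the 4 receptors in CK and the highest in the combination group, in FPKM, which scale counts to transcript length and depth. It had 1.40, 1.02 and 1.18 FPKM in CK tumors 1 to 3 and 1.60, 1.71 and 1.79 FPKM in the PB-020 tumors. In the anti-PD-1 tumors it had 5.88, 2.41 and 2.86 FPKM, and in the combination tumors 4.85, 5.0 and 4.74 FPKM. CK, PB-020 and anti-PD-1 formed 3 ranges that did not overlap, whereas the combination tumors lay inside the wide range of anti-PD-1, below its tumor 1 and above its tumors 2 and 3. Group means were 1.20 ± 0.191, 1.70 ± 0.0954, 3.72 ± 1.89 and 4.86 ± 0.131 FPKM (SD, n = 3 each). The coefficient of variation was 50.8% in anti-PD-1 and 2.68% with both agents. These levels rested on 36 to 50 counts per CK tumor and 167 to 172 per combination tumor.

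**Figure D1:**
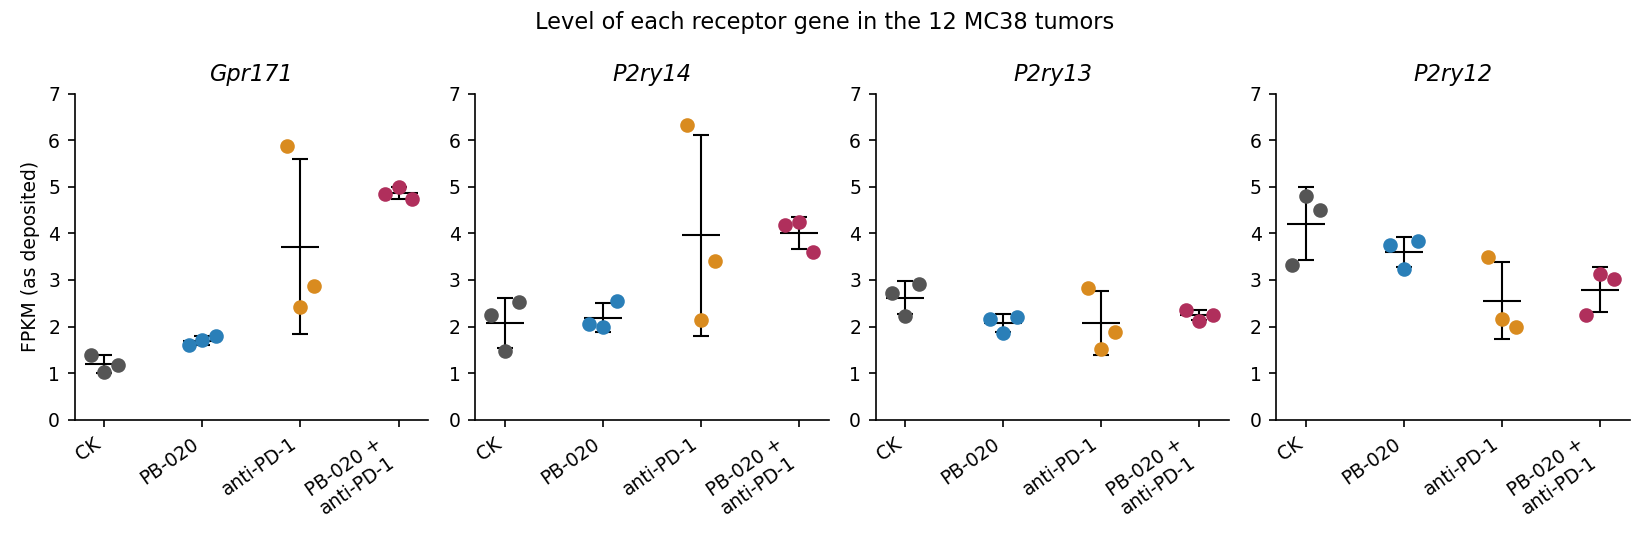
FPKM of Gpr171, P2ry14, P2ry13 and P2ry12 (vertical axes) in the 12 tumors by group. Points are tumors 1 to 3 from left to right, long ticks are group means and bars are SD (n = 3). Gpr171 was lowest in CK and tight near 4.86 FPKM in the combination group, P2ry12 was highest in CK, and anti-PD-1 tumor 1 was the highest of its group in every panel.

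On the log2 scale of edgeR, the difference of Gpr171 from CK was 0.52 (SE 0.28) with PB-020, 1.64 (SE 0.28) with anti-PD-1 and 2.03 (SE 0.28) with the combination, which is 4.09-fold. These 3 values share the CK tumors, which were taken to have entered the choice of the gene, and none was tested. The combination exceeded anti-PD-1 alone by 0.39 (SE 0.26), with overlapping tumors. That gap depended on 1 library, since without anti-PD-1 tumor 1 it was 0.87. Without the same tumor, the difference of anti-PD-1 from CK was 1.16.

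The comparison of anti-PD-1 with PB-020 used neither group by which Gpr171 was taken to be chosen, and it was the comparison in which Gpr171 was tested. If other groups also entered the choice, the p values of this comparison are not independent of it. Gpr171 was higher with anti-PD-1 by 1.12 (SE 0.27), or 2.18-fold, in 3 of 3 tumors, with an unadjusted p of 0.00094 and an adjusted p of 0.075 (edgeR's quasi-likelihood test, Benjamini-Hochberg over 13563 genes). It therefore did not pass 0.05, in a comparison where 26 genes (0.192%) did, 0.103% of all genes being raised and 0.0885% lowered. The spread in this test was still estimated from all 12 tumors. DESeq2 gave an adjusted p of 0.01 for a change of 1.13, edgeR without anti-PD-1 tumor 2 gave 0.0096 for a change of 1.35, and the alternatives together spanned 0.0096 to 0.24. Across them the change ran from 0.64 to 1.35 and kept its direction.

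P2ry14, the nearest neighbor of Gpr171, followed it in direction but with a smaller difference. It had 2.24, 1.47 and 2.52 FPKM in CK and 2.05, 1.99 and 2.54 FPKM in PB-020. The anti-PD-1 tumors had 6.33, 2.14 and 3.40 FPKM, and the combination tumors 4.17, 4.25 and 3.61 FPKM. The combination tumors all lay above the CK tumors, while the anti-PD-1 tumors, spread over a wide range, overlapped with every other group. The means were 2.08 ± 0.544, 2.19 ± 0.302, 3.96 ± 2.15 and 4.01 ± 0.349 FPKM (SD, n = 3).

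P2ry14 exceeded CK by 0.12 (SE 0.32, adjusted p = 0.98) with PB-020, by 0.94 (SE 0.32, adjusted p = 0.082) with anti-PD-1 and by 0.95 (SE 0.32, adjusted p = 0.055) with the combination (edgeR). None passed 0.05, and the last lay close to it. It passed in 6 of 20 alternatives, among them DESeq2 (adjusted p = 0.033) and fits without anti-PD-1 tumor 1 (0.0079) or tumor 2 (0.018), in a range from 0.0064 to 0.2. For anti-PD-1 against CK it passed only without anti-PD-1 tumor 2, with a change of 1.22 (adjusted p = 0.01), and without anti-PD-1 tumor 1 it was 0.46 (adjusted p = 0.3). The change of P2ry14 with anti-PD-1 against PB-020 was 0.82 (SE 0.32, adjusted p = 0.18), with 1.11 (adjusted p = 0.028) without tumor 2 and 0.34 (adjusted p = 0.62) without tumor 1. Combination and anti-PD-1 tumors differed by 0.01 (SE 0.31, adjusted p = 1).

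P2ry12, at the other end of the stretch, ran the opposite way and was the highest of the 4 receptors in CK. It had 3.32, 4.81 and 4.49 FPKM in CK, and 3.74, 3.24 and 3.84 FPKM in PB-020. The anti-PD-1 tumors held 3.50, 2.16 and 1.99 FPKM of P2ry12, and the combination tumors 2.24, 3.13 and 3.01 FPKM. The 3 combination tumors lay below the 3 CK tumors, and anti-PD-1 tumors 2 and 3 did so too, but anti-PD-1 tumor 1 lay within the CK range. For CK, PB-020, anti-PD-1 and combination tumors the means were 4.21 ± 0.784, 3.61 ± 0.321, 2.55 ± 0.827 and 2.79 ± 0.483 FPKM (SD, n = 3).

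Relative to CK, P2ry12 differed by −0.20 (SE 0.21, adjusted p = 0.94) with PB-020, −0.69 (SE 0.21, adjusted p = 0.06) with anti-PD-1 and −0.56 (SE 0.21, adjusted p = 0.08) with the combination (edgeR). None passed 0.05. The anti-PD-1 difference was −0.97 (adjusted p = 0.014) without anti-PD-1 tumor 1, −0.83 (adjusted p = 0.045) without CK tumor 1 and −0.69 (adjusted p = 0.038) with DESeq2, and its adjusted p ran up to 0.21 elsewhere. The combination difference had an adjusted p of 0.022 when anti-PD-1 tumor 1 was left out of the shared spread, in a range of 0.022 to 0.25. Against PB-020, anti-PD-1 differed by −0.49 (SE 0.21, adjusted p = 0.22).

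P2ry13, which lies next to P2ry12 and shares its ligand, varied least between groups. It had 2.73, 2.23 and 2.91 FPKM in the CK tumors and 2.16, 1.86 and 2.21 FPKM after PB-020. The values after the antibody were 2.83, 1.51 and 1.89 FPKM, and those after both agents 2.35, 2.13 and 2.25 FPKM. All treated group means, between 2.08 and 2.24 FPKM, were under the CK mean of 2.62 ± 0.352 FPKM (SD, n = 3). In FPKM the PB-020 tumors lay just below the CK tumors, but with TMM scaling, as edgeR uses, the groups overlapped, while 6.47% of all genes were lower without overlap on that scale. The changes from CK were −0.31, −0.32 and −0.21 (SE 0.2 each, adjusted p = 0.88, 0.34 and 0.51) for PB-020, anti-PD-1 and the combination. Between anti-PD-1 and PB-020 the change was 0.00 (SE 0.21, adjusted p = 0.99).

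**Figure D2:**
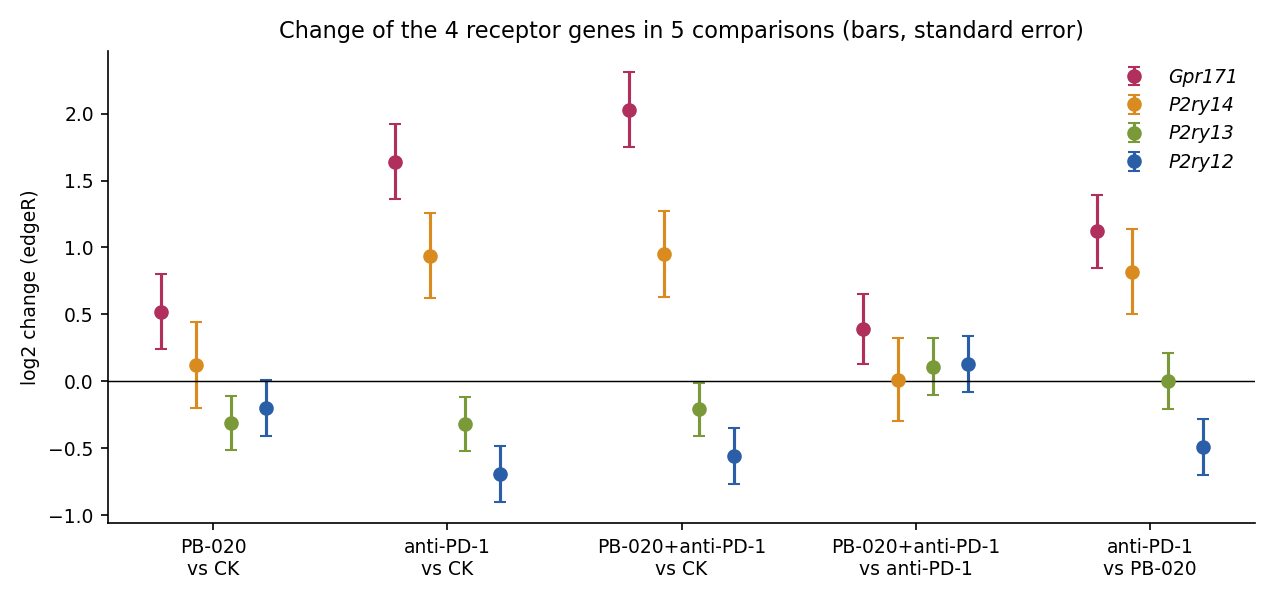
Log2 change (vertical axis) of the 4 receptor genes in 5 comparisons (horizontal axis), from edgeR, with bars of 1 standard error. Gpr171 and P2ry14 lay above 0 and P2ry12 below 0 with anti-PD-1, with or without PB-020, and all 4 genes lay within 0.39 of 0 between the combination and anti-PD-1.

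Counted together, 0 of the 3 members tested against CK passed an adjusted p of 0.05 with anti-PD-1, where 8.26% of all genes passed, or with the combination, where 17.9% passed. With PB-020 no gene of the 13563 was called by edgeR (0%), 741 had an unadjusted p under 0.05 and DESeq2 called 6. In the combination against CK, P2ry14 was higher without overlap, as 19.6% of all genes were, and P2ry12 was lower without overlap, as 21.2% of all genes were. With anti-PD-1, P2ry14 and P2ry12 overlapped CK, and 13.9% and 15.2% of genes did not, higher and lower. Gpr171 was higher without overlap in all 3 comparisons with CK, where 7.78% of all genes were so with PB-020, but it was chosen on these tumors. In anti-PD-1 against PB-020, Gpr171 alone of the 4 did not overlap, and 12% of all genes were higher without overlap. The combination against anti-PD-1 had 0 genes called by edgeR, 984 at an unadjusted p under 0.05 and 1 with DESeq2, and no member separated the groups, as 4.33% of all genes did upward and 5.71% downward.

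Ratios of TPM between members of the same tumor need no scaling between libraries, and they differed between the groups. The ratio of Gpr171 to P2ry12 was 0.212 to 0.422 in CK, 0.427 to 0.528 in PB-020, 1.12 to 1.68 in anti-PD-1 and 1.58 to 2.17 with both agents. Thus P2ry12 exceeded Gpr171 in all 6 tumors without the antibody, and Gpr171 exceeded P2ry12 in all 6 with it. The ratio of P2ry14 to P2ry13 was 0.659 to 0.866 in CK, 0.946 to 1.15 in PB-020, 1.42 to 2.24 in anti-PD-1 and 1.6 to 1.99 with both agents, so the antibody groups did not overlap the others here either. Anti-PD-1 tumor 1, which decided the spread of several single genes, had ratios within or near those of the other antibody tumors. Ratios were not tested, since one of them contains the gene chosen for its change. Over the 12 tumors, r of the deviations from group means was positive for all 6 pairs, from 0.42 for P2ry12 with P2ry14 to 0.95 for P2ry13 with P2ry14. Without anti-PD-1 tumor 1, over 11 tumors, it was 0.83 for Gpr171 with P2ry14, 0.87 for P2ry13 with P2ry14 and 0.62 for Gpr171 with P2ry13, but −0.58, −0.31 and −0.26 for P2ry12 with Gpr171, P2ry14 and P2ry13. These are descriptions of genes that, within each tumor, share a library and its depth, with no test.

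The other genes of the region were examined over the same comparisons. For 15 other genes of the table the lower coordinate lay within 1 Mb of that of Gpr171, and 7 of them had enough counts. Of these 7, 0 passed an adjusted p of 0.05 in any of the 5 comparisons (edgeR). Against CK, 8.26% of all genes were called with anti-PD-1 and 17.9% with the combination. No test compared these 7 genes with the members, of which none passed against CK either. Their log2 changes ran from −0.3 to 0.24 in the combination against CK and from −0.85 to 0.23 in anti-PD-1 against CK. Med12l, the host gene, gave the lowest of these values, −0.85 (SE 0.42, adjusted p = 0.22) with anti-PD-1 and −0.3 (SE 0.41, adjusted p = 0.63) with the combination. Siah2, a ubiquitin ligase gene, gave the highest in the combination, 0.24 (SE 0.11, adjusted p = 0.13). Selenot had 0.15 (SE 0.07, adjusted p = 0.13) there, and Tsc22d2, Serp1, Eif2a and Igsf10 lay between 0 and 0.09.

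Among the genes of the region too low to test were Sucnr1, the succinate receptor gene, at 0 to 0.0833 FPKM, and Erich6, Clrn1, Aadac, Aadacl2, Aadacl2fm1 and Aadacl2fm2, the last 2 under older symbols in the table. Their group means were at most 0.123 FPKM.

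Markers of several cell types differed along with Gpr171. Of 15 T cell markers, 13 were raised in the combination group and 11 in anti-PD-1 against CK, where 8.35% and 4.18% of all genes were, and their median log2 changes were 1.55 and 1.51 (0 for all genes). With PB-020 0 of 15 were called, with a median of 0.29, and between anti-PD-1 and PB-020 0 of 15 were called, with a median of 1.15. The summed TPM of the list was 31.3 to 41.7 in CK, 42.6 to 52.6 in PB-020, 68 to 181 in anti-PD-1 and 80.9 to 120 with both agents. As with Gpr171, CK, PB-020 and anti-PD-1 did not overlap in this sum and the combination lay within the range of anti-PD-1.

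Some NK cell markers and all erythroid markers differed in the same comparisons. Of 6 NK cell markers 3 were raised in the combination group and 2 in anti-PD-1 against CK, where 8.35% and 4.18% of all genes were. Their medians were 1.34 and 0.82, and 0 were called with PB-020. Those raised with the combination were Klrd1, Klre1 and Klrk1. Ncr1, Klrb1c and Eomes were not called there, with changes of 0.81, 0.9 and −0.1 (edgeR, adjusted p = 0.15, 0.24 and 0.66). The sum of all 6 was 16.4 to 18.4 TPM in CK and 13.9 to 23.7 TPM in PB-020. It was 21.2 to 49.1 TPM in anti-PD-1 and 35.7 to 51.5 TPM with both agents. All 5 erythroid markers were lowered in both antibody groups, where 4.08% of all genes were with anti-PD-1 and 9.6% with the combination, with medians of −2.36 and −2.99. Their sum was 1220 to 2760 TPM in CK and 224 to 305 TPM in the combination tumors. The part of these cells in the differences of the 4 receptors was not tested.

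Set against these markers, Gpr171 differed much less between groups. It had 5.09 to 6.24 TPM per 100 TPM of T cell markers in CK, 5.8 to 7.07 in PB-020, 6.22 to 7.33 in anti-PD-1 and 6.88 to 10.5 with both agents. The combination range lay above that of CK, and each group overlapped with the next. Per 100 TPM of the T cell receptor chains Cd3d, Cd3e and Cd3g, the ranges were 15.5 to 22.7, 17.2 to 22.8, 20.3 to 23 and 19.8 to 34.6, and all overlapped with at least 1 other. How much of the difference in Gpr171 went with the amount of T cell RNA was not tested.

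**Figure D3:**
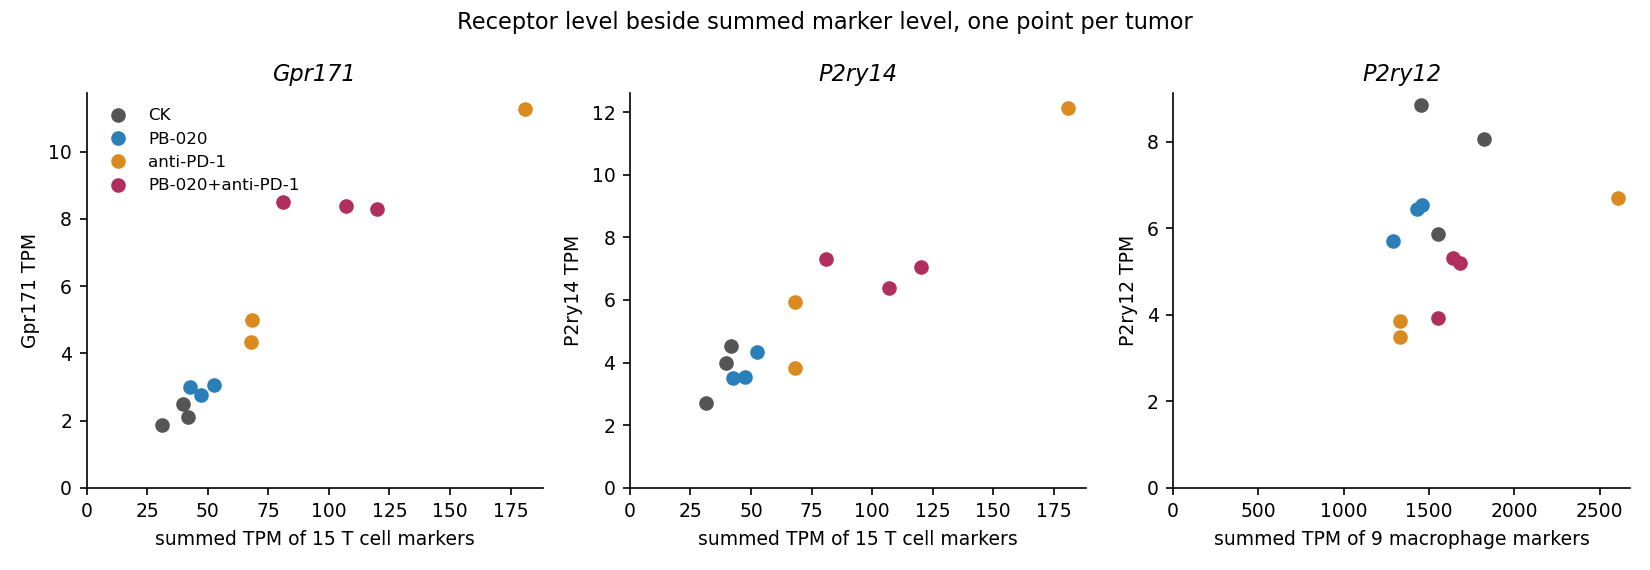
TPM of Gpr171 and P2ry14 beside the summed TPM of 15 T cell markers, and TPM of P2ry12 beside that of 9 macrophage markers, 1 point per tumor, colored by group. Gpr171 and P2ry14 were highest in anti-PD-1 tumor 1, which had 181 TPM of T cell markers, whereas P2ry12 was lower in the combination tumors than in the CK tumors at macrophage levels of 1450 to 1820 TPM in both.

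For P2ry12 and P2ry13 the markers of macrophages and microglia were compared, since both receptors are known from such cells. Of 9 macrophage markers 0 were called in any comparison with CK, and their sum was 1450 to 1820 TPM in CK and 1550 to 1680 TPM in the combination group. P2ry12 came to 3.81 to 6.11 TPM per 1000 TPM of these markers in CK, 4.42 to 4.51 in PB-020, 2.57 to 2.91 in anti-PD-1 and 2.54 to 3.23 with both agents. Most of the sum came from C1qa, C1qb and C1qc. On this scale all 6 tumors that received the antibody, anti-PD-1 tumor 1 included, lay below the 6 that did not. P2ry13 came to 2.83 to 3.14 in CK, 2.54 to 2.61 in PB-020, 2.04 to 2.5 in anti-PD-1 and 2.1 to 2.67 with both agents.

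Of the 4 microglia markers tested, Tmem119 fell by 0.46 (SE 0.13, adjusted p = 0.029) and Cx3cr1, the fractalkine receptor gene, fell by 0.77 (SE 0.22, adjusted p = 0.039) in the combination against CK, which lowered 9.6% of all genes, whereas Olfml3 had a change of 0.02. Sall1, a defining microglial factor, was too low to test. Of the 4 platelet markers tested, Itga2b fell by 0.74 (SE 0.24, adjusted p = 0.045) and Pf4 had a change of −0.31 (SE 0.33, adjusted p = 0.54). The part of these cells in the difference of P2ry12 was not tested.

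For P2ry14 the dendritic cell markers were set beside it. Of 9, 1 was raised in the combination group, Xcr1, the chemokine receptor gene of cross-presenting dendritic cells, by 1.07 (SE 0.33, adjusted p = 0.038), near the 8.35% of all genes raised, and the median of the 9 was 0.52. Most of their sum came from Fscn1, at 85.6 FPKM in CK with a change of −0.02 (SE 0.08), so no ratio to the sum is given. The part of dendritic cells in the difference of P2ry14 was not tested.

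Each member had its own set of genes with the most similar pattern over the 12 tumors, by Pearson's r of log2 counts scaled to library size (CPM). These values include the difference between groups, and r of the deviations from group means is given beside them, with no test. For Gpr171 they were the T and NK cell genes Ctla4, Cd2, Nkg7 and Il18rap (r = 0.97 each) and Unc13d (0.96), with deviations at 0.84 to 0.92. Cd2 is also among the 15 T cell markers above. Without anti-PD-1 tumor 1, a setting chosen after seeing the data, r was 0.96 to 0.97 over 11 tumors, but r of the deviations was 0.34 for Unc13d, 0.51 for Cd2, 0.56 for Ctla4, 0.7 for Nkg7 and 0.89 for Il18rap.

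For P2ry14 the set was Itga11, Mtmr7, Icos, Arg1 and Gria3 (r = 0.96 each, deviations 0.91 to 0.94), a mixture of an integrin, a T cell costimulator that is also on the T cell list and the arginase of myeloid cells among others. Without anti-PD-1 tumor 1 its deviations kept r between 0.8 and 0.88. P2ry12 was most like Gpr34 (0.96), a receptor of the same family, followed by Slco2b1 and Plpp3 (0.93 each) and Cd300lg and Pgap3 (0.92 each), with deviations at 0.85 to 0.94, or 0.67 to 0.89 without that tumor. P2ry13 had the weakest likeness, with Nxpe5 and Ccdc125 (0.87 each), Shkbp1 (0.86), Fzd4 (0.85) and Serpina3n (0.84), with deviations at 0.85 to 0.9, or 0.46 to 0.98 without that tumor. The 4 sets had no gene in common.

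Of 20 other P2Y and P2Y-like receptor genes 16 were tested, and these too went in both directions. In the combination against CK, 4 were raised and 1 was lowered, against 8.35% and 9.6% of all genes, with a list median of 0.39 (0 for all genes). P2ry10, a receptor for lysophosphatidylserine on lymphocytes, rose by 1.52 (SE 0.3, adjusted p = 0.0067) from 1.17 ± 0.182 to 3.32 ± 0.693 FPKM (SD, n = 3). Gpr174, a lymphocyte receptor for the same lipid, rose by 1.67 (SE 0.52, adjusted p = 0.041) at only 0.12 to 0.36 FPKM. Gpr18 rose by 1.24 (SE 0.31, adjusted p = 0.016). P2ry10b rose by 0.47 (SE 0.08, adjusted p = 0.0039), but reads of P2ry10 and this related copy may have been divided between them.

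Gpr34, the lysophosphatidylserine receptor of myeloid cells that was most like P2ry12, was the gene lowered, by −1.05 (SE 0.25, adjusted p = 0.014), from 5.07 ± 0.914 to 2.34 ± 0.681 FPKM (SD, n = 3). With anti-PD-1 alone, which lowered 4.08% of all genes, Gpr34 fell by 1.42 (SE 0.26, adjusted p = 0.0094) and Gpr18 rose by 1.07 (SE 0.31, adjusted p = 0.048). Anti-PD-1 against PB-020 gave 0 of 16, with Gpr34 at −1.0 (SE 0.26, adjusted p = 0.085), Gpr132 at 1.26 (SE 0.35, adjusted p = 0.11), Gpr18 at 1.04 (SE 0.31, adjusted p = 0.11) and Gpr35 at 0.95 (SE 0.29, adjusted p = 0.12).

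Among the 4 P2X channels tested, which ATP opens, 1 was called. It was lowered, as were 9.6% of all genes in the combination and 4.08% with anti-PD-1 against CK. P2rx7 was lowered by −0.47 (SE 0.08, adjusted p = 0.0042) in the combination and by −0.42 (SE 0.08, adjusted p = 0.013) with anti-PD-1. P2rx4, P2rx3 and P2rx5 had changes of −0.05, 0.06 and −0.14 in the combination. P2rx7 went from 14.6 ± 0.291 FPKM in CK to 10.5 ± 0.955 FPKM in the combination group (SD, n = 3). All 7 listed channels together had 54 to 55.4 TPM in CK and 40.4 to 47.6 TPM in the combination group.

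Of 13 tested genes for the release and breakdown of the receptors' ligands, 0 were raised and 3 lowered in the combination, where 8.35% of all genes were raised and 9.6% lowered. Entpd2, an ectoenzyme that turns ATP into ADP, the ligand of P2Y12 and P2Y13, fell by 0.79 (SE 0.12, adjusted p = 0.0024), from 35.2 ± 0.443 to 20.1 ± 2.49 FPKM (SD, n = 3). Enpp3, an ectonucleotide pyrophosphatase, fell by 3.02 (SE 0.43, adjusted p = 0.0031), and Slc17a9, the vesicular nucleotide transporter, fell by 0.96 (SE 0.2, adjusted p = 0.0086). With anti-PD-1 Entpd2 fell by 0.77 (adjusted p = 0.0067) and Enpp3 by 2.34 (adjusted p = 0.012). Ada and Adk, which remove adenosine, had 0.14 and 0.14 in the combination (adjusted p = 0.44 and 0.39). Pcsk1, a prohormone convertase gene, was too low to test. Pcsk1n, which encodes proSAAS, was on the list but had no row under that symbol in the data used here.

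Of 23 tested genes of Gi coupling and its control, 1 was raised and 3 were lowered in the combination, which is close to the 8.35% and 9.6% of all genes. Arrb2, which encodes β-arrestin 2, rose by 0.26 (SE 0.07, adjusted p = 0.027). Rgs2, a GTPase activator, fell by 0.49 (SE 0.14, adjusted p = 0.026), Adcy7, an adenylyl cyclase, by 0.32 (SE 0.08, adjusted p = 0.017) and Grk5, a receptor kinase, by 0.31 (SE 0.08, adjusted p = 0.022). With anti-PD-1, Rgs2 fell by 0.74 (adjusted p = 0.01) and Grk2 rose by 0.27 (adjusted p = 0.043). Rgs18, known from platelets, and Rgs16 had −0.71 and 0.63 in the combination (adjusted p = 0.17 and 0.099). None of the P2X, ligand or Gi coupling genes was called in anti-PD-1 against PB-020, where the lowest adjusted p was that of Entpd2 (0.069).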

How the data were processed

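Tumors were assigned to groups by their treatment labels. The authors sequenced libraries as paired-end reads. The study's methods name Bowtie2, RSEM and mm10 or hg19 as reference, and the submitters' processing notes name HISAT, Bowtie2 and GRCm38.p6. The authors deposited expected counts (estimated by RSEM, 91% of them whole within 1e-06), and FPKM and TPM, which the authors scaled to transcript length and library total. Their group averages were not used. In R 4.3.3 the expected counts of 18211 genes were rounded and scaled by TMM in edgeR 4.0.16 after filterByExpr, at a minimum of 10 counts, had left 13563 genes. A quasi-likelihood model of 4 group means was fitted to all 12 tumors, with two-sided tests and Benjamini-Hochberg adjustment over all genes. Standard errors come from the same model, and means ± SD from the deposited FPKM. Likeness used log2 CPM (prior count 2).

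Libraries held 16545394 to 17217035 counts (median 16927043). Precision is low for members with few counts, such as 36 for Gpr171 in CK tumor 2. Of the table's genes 18091 matched RefSeq (GRCm38.p6) by gene number, the source of coordinates and promoter windows, and exon overlaps used GENCODE. The members, gene lists and alternatives were chosen with earlier results of these data known. Named are the members, genes within 1 Mb of Gpr171, the 5 genes most like each member, and from each related list those called in the combination against CK or in anti-PD-1 against PB-020 and up to 4 with the smallest p in the latter. Calls in anti-PD-1 against CK and single markers were named after their values were seen. Alternatives were DESeq2 1.42.0, limma 3.58.1 on log2(FPKM + 1) and log2(FPKM + 0.1), library size scaling, no filter, a filter at 30 counts, the replicate number as a block, only the groups compared, and each tumor left out. The computation was tested on simulated data. Values of 2 genes are not reported here.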

Additional observations from a re-analysis of the deposited data

How the results depend on the processing

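Of 500 values recomputed under 20 alternatives (12 that leave out 1 tumor and 8 others), 441 were counted as unchanged. A tested change had to stay on its side of the threshold without reversing its sign. A main value of 0.00 could not reverse under this rule. P2ry13 in anti-PD-1 against PB-020 had such a value and counted as unchanged in all 20 alternatives on the threshold alone. An untested change of Gpr171 had to keep its sign and move less than the spread. A count of genes called had to stay within a set fold of the main count. The causes of the changes below were not tested, except that fits of fewer tumors rest on fewer samples. With 3 tumors per group and 36 to 207 counts per tumor, log2 differences of Gpr171 near its standard errors of 0.26 to 0.28 were not detectable.

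Counts of genes called moved most. PB-020 against CK gave 0, 6 with DESeq2, and 0 to 2 with 1 tumor left out. Anti-PD-1 against CK gave 1120, 3 with only the groups compared, and 137 (without CK tumor 2) to 1905 (without anti-PD-1 tumor 2). The combination against CK gave 2434, and 864 (without CK tumor 2) to 3344 (without anti-PD-1 tumor 1). The combination against anti-PD-1 gave 0, 1 with DESeq2, and 0 to 2 with 1 tumor left out. Anti-PD-1 against PB-020 gave 26, 670 with DESeq2, 2 with library size scaling, 42 with no filter, 0 with limma on log2(FPKM + 1), 4 on log2(FPKM + 0.1), 3 with only the groups compared, and 0 (without anti-PD-1 tumor 3) to 993 (without anti-PD-1 tumor 2).

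Gpr171 kept its direction throughout. On log2(FPKM + 1) it was 1.03 with anti-PD-1 and 1.42 with the combination against CK. With 0.1 added in place of 1, these values of Gpr171 were 1.46 and 1.94. With 1 tumor left out it was 1.16 to 1.86 for anti-PD-1 and 1.93 to 2.17 for the combination against CK, 0.17 to 0.87 for the combination against anti-PD-1, and 0.64 to 1.35 for anti-PD-1 against PB-020, where DESeq2 gave 1.13 (adjusted p = 0.01). P2ry12 was −0.69 with DESeq2 for anti-PD-1 against CK (adjusted p = 0.038) and −0.97 to −0.56 with 1 tumor left out. For the combination it was −0.56 with only the groups compared (adjusted p = 0.032) and −0.7 to −0.44 with 1 tumor left out. P2ry14 in the combination against CK passed at 0.95 with DESeq2 (adjusted p = 0.033), the filter at 30 counts (0.049) and only the groups compared (0.0064), and was 0.74 to 1.08 with 1 tumor left out. It was 0.46 to 1.22 for anti-PD-1 against CK and 0.34 to 1.11 against PB-020 with 1 tumor left out.

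Signs turned for values of P2ry14 and P2ry13 near 0. Without CK tumor 2, P2ry14 was −0.09 with PB-020 against CK (range −0.09 to 0.24). In the combination against anti-PD-1 it was −0.28, −0.06, −0.02 and −0.03 without anti-PD-1 tumors 2 and 3 and combination tumors 1 and 2 (range −0.28 to 0.49), and P2ry13 was −0.06 without anti-PD-1 tumor 2 (range −0.06 to 0.39). P2ry13 in anti-PD-1 against PB-020, at 0.00, took either sign, from −0.28 to 0.17.

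The replicate numbers did not pair the tumors: correlations of deviations between same-numbered tumors ran from −0.21 to 0.29 (median −0.04), 2 of 18 were over 0.1, and 2 of 12 tumors correlated best with their own number. With the replicate number as a block, P2ry14 in the combination against CK was 0.99 (adjusted p = 0.042) and anti-PD-1 against PB-020 had 61 genes called. No other member changed its call under the block.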
